A study of Rattus norvegicus with 4 samples.

Results

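Expression of 8 genes of the oligodendrocyte lineage and of myelin, Olig1, Olig2, Sox10, Pdgfra, Cnp, Mbp, Mag and Mog, was examined in cultured rat cortical neurons in which the cap methyltransferase Cmtr1 was knocked down. The genes were taken as the array's own gene names give them: every probe that carried one of these names was used, which gave 10 probes of 41012 gene probes on the array, or 8 of 34235 gene names, with 2 probes each for Mbp and Mog. The neurons came from cortices of Sprague Dawley embryos at stage E18.5, of both sexes, and were infected at day 2 in vitro with a lentivirus for either of 2 shRNAs, a control (shCTL) or one that targets Cmtr1 (shCM1). Total RNA was taken at day 7 in vitro, and each group held 2 arrays from 2 independent experiments. Both groups thus carried a virus and an shRNA, and no uninfected culture was analysed here. The labels call the cells primary cultured neurons, and the shRNA sequence was not among the sources used. The arrays numbered 1 shared a slide and a scan (slide 1), and so did those numbered 2 (slide 2), so slide, scan and replicate number were the same split.

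Oligodendrocytes are the glial cells that wrap axons of the brain in myelin. They arise from precursor cells that carry the growth factor receptor encoded by Pdgfra, and the transcription factors Olig1, Olig2 and Sox10 act along the whole lineage. Cnp, Mbp, Mag and Mog encode proteins of the myelin sheath. Cnp and Mbp lie on the cytoplasmic side of its membranes, and Mag faces the axon. Mog is on the outer surface of the sheath and is usually a late marker of maturation. Cmtr1 encodes the enzyme that adds a methyl group to the ribose next to the mRNA cap.

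The array measured each gene through a probe of 60 bases. The probes below stand for coding parts of 4 members, with the probe position on rat build rn4 as the file gives it, and show what a signal of these genes reads.

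Olig2, chr11:31206908-31206967, plus strand: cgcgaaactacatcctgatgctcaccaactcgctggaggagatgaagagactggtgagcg

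Cnp, chr10:89524880-89524939, plus strand: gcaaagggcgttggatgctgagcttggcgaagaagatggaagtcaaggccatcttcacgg

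Mag, chr1:85954956-85955015, minus strand: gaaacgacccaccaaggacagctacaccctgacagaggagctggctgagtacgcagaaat

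Mog probe a, chr20:1610278-1610337, plus strand: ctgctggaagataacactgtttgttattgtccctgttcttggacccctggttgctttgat

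The other Mog probe (Mog b) lay downstream on the same strand at chr20:1611776-1611835. One Mbp probe (Mbp a) lay at chr18:79055910-79055969, and the other (Mbp b) spanned 1939 bases of the genome at chr18:79044276-79046214, so that its 60 bases cross an exon junction. The Olig1 probe lay at chr11:31246213-31246272, on the same chromosome and strand as that of Olig2. Sox10 was read at chr7:117138840-117138899 and Pdgfra at chr14:35369708-35369767, both on the minus strand. The 10 probes held between 40% and 55% G and C. All 10 were well above background on all 4 arrays, and no gene spot on any array was saturated.

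The targeted gene was lower in the libraries labelled shCM1. Cmtr1 stood at -1.43 and -1.86 in shCTL and at -3.46 and -3.53 in shCM1, in log2 units, with 0 set at the 75th percentile of all gene probes on that array, which is the scale of every level below. Its difference was -1.85 on the log2 scale (SE 0.22 in the main fit, n = 2 arrays per group), or 27.7% of the control level. On each array, 84.0% to 90.4% of the probes were well above background. The main fit with limma had no slide term, and in it 0 of the 36700 probes tested had an adjusted p under 0.05, while 1110 probes (3.02%) had an unadjusted p under 0.05. With the slide as a replicate block, 2164 probes (5.9%) passed, 1176 of them higher (3.2%) and 988 lower (2.69%) in shCM1. The split moved with the scaling, to 545 higher and 808 lower with quantile normalization, 369 and 603 with cyclic loess, 635 and 787 with normexp, and 429 and 679 in the authors' value table. That fit has 1 residual degree of freedom and a prior of 14.8, so the error it uses comes largely from other probes of similar brightness. Over all probes tested, the median difference between shCM1 and shCTL was 0.08.

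The 3 lineage transcription factors did not pass the test in either fit. Olig1, a basic helix-loop-helix factor, was at 5.05 and 5.10 in shCTL and at 4.89 and 5.04 in shCM1, from linear signals of 21582 and 25809, and of 17629 and 24423. Both shCM1 arrays were below both shCTL arrays, by a margin of under 0.1 at the closest pair. The difference was -0.16 within slide 1 and -0.06 within slide 2, and -0.11 in the fit (SE 0.13 without the block). With the block, the limma adjusted p was 0.42 and the 95% interval ran from -0.28 to 0.05.

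Olig2, the basic helix-loop-helix factor needed to form the lineage, was at -3.10 on both shCTL arrays and at -3.37 and -2.60 in shCM1. The shCM1 arrays lay on either side of the control arrays: the array of slide 1 was the lowest and that of slide 2 the highest. The difference was thus -0.27 within slide 1 and 0.49 within slide 2. The mean of 0.11 (SE 0.30 without the block) was smaller than the spread between the arrays. The limma adjusted p with the block was 0.749, with a 95% interval from -0.26 to 0.48, and the mean turned to -0.047 with quantile normalization, -0.037 with cyclic loess and -0.040 in the authors' value table.

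Sox10, the SOX factor that drives myelin gene transcription, was at 0.12 and 1.72 in shCTL and at -0.25 and 1.65 in shCM1, with linear signals of 711 and 2488, and of 500 and 2337. The arrays fell by slide and not by group, as both arrays of slide 2 were far above both of slide 1. The shCM1 array was the lower of the pair within each slide, by 0.38 on slide 1 and 0.07 on slide 2. The fitted difference was -0.22 (SE 0.77 without the block and 0.11 with it), and the limma adjusted p with the block was 0.221.

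Pdgfra, the platelet-derived growth factor receptor alpha of precursor cells, was at 2.87 and 3.40 in shCTL and at 2.82 and 3.58 in shCM1. Here too the arrays of slide 2 were the higher ones in both groups. The difference was -0.04 within slide 1 and 0.19 within slide 2, with a mean of 0.07 (SE 0.31 without the block). The limma adjusted p with the block was 0.672, with a 95% interval from -0.12 to 0.26. Pdgfra also marks fibroblasts, which are among the cell types checked below.

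**Figure D1:**
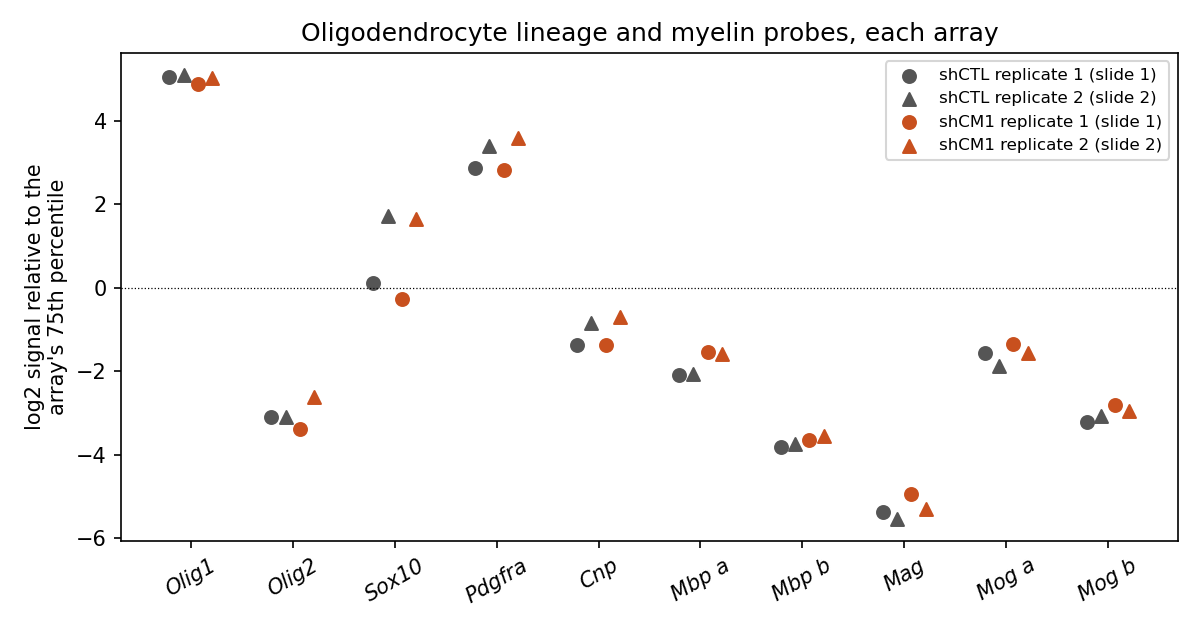
Level of each of the 10 probes on each of the 4 arrays, as log2 signal relative to the array's 75th percentile (dotted line at 0), with shCTL in grey, shCM1 in orange, circles for slide 1 and triangles for slide 2. For Sox10, Pdgfra and Cnp, and narrowly for Olig2, both triangles lie above both circles. Within each group the triangle is also slightly higher for Olig1 and Mbp b. Both orange points lie above both grey points for the Mbp, Mag and Mog probes. Levels of different probes are not comparable.

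Among the myelin genes, Mbp, Mag and Mog were higher in shCM1 within both slides at each of their 5 probes, and 1 of these probes passed the test with the block. Mbp probe a stood at -2.09 and -2.07 in shCTL and at -1.53 and -1.59 in shCM1, with linear signals of 153 and 180, and of 207 and 248. Both shCM1 arrays were above both controls, and arrays of a group were closer to each other than to the other group. The difference was 0.57 within slide 1 and 0.48 within slide 2. The fitted value was 0.52 (SE 0.17 without the block), a 1.44-fold higher signal, with a 95% interval from 0.26 to 0.78 with the block. The limma adjusted p was 1.00 without the block and 0.0197 with it.

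This was the only probe of the 8 genes that passed, which is 1 of 10 beside 5.9% of all probes, or 3.2% for higher ones. It did not pass with the block under quantile normalization (limma adjusted p 0.0672), cyclic loess (0.0866), normexp background correction (0.0743, with a difference of 0.34), in the authors' value table (0.0823), without the filter on dim probes (0.109) or without the intensity trend (0.242). Leaving out 1 array at a time gave 0.49 to 0.55.

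Mbp probe b, which reads the exon junction, was at -3.81 and -3.73 in shCTL and at -3.65 and -3.55 in shCM1. Both shCM1 arrays were again the higher ones, at a smaller distance. The difference was 0.16 within slide 1, 0.18 within slide 2 and 0.17 in the fit (SE 0.21 without the block). With the block, the limma adjusted p was 0.578 and the 95% interval ran from -0.19 to 0.53. The fitted difference was 0.0048 with quantile normalization, 0.0047 in the authors' value table and 0.072 with normexp, and it turned to -0.013 with cyclic loess. The mean of both Mbp probes gave 0.35, with a limma adjusted p of 0.156 with the block.

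Mog, the myelin oligodendrocyte glycoprotein, was at -1.57 and -1.87 in shCTL and at -1.33 and -1.55 in shCM1 at probe a. The shCM1 arrays were above both controls, the closest pair by under 0.1. The difference was 0.24 within slide 1 and 0.31 within slide 2, and 0.28 in the fit (SE 0.20 without the block). With the block the limma unadjusted p was 0.0348 and the adjusted p 0.185, with a 95% interval from 0.02 to 0.53. Leaving out 1 array at a time gave 0.13 to 0.42.

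Mog probe b was at -3.20 and -3.06 in shCTL and at -2.80 and -2.94 in shCM1. Both Mog probes thus had the shCM1 arrays on top. The difference at probe b was 0.40 within slide 1, 0.12 within slide 2 and 0.26 in the fit (SE 0.19 without the block). The limma adjusted p with the block was 0.317. The value at probe b was 0.11 with quantile normalization, 0.12 with cyclic loess, 0.11 in the authors' value table and 0.16 with normexp. The mean of both Mog probes gave 0.27, with a limma adjusted p of 0.234 with the block.

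Mag, the myelin-associated glycoprotein of the membrane next to the axon, gave linear signals of 15.9 and 16.4 in shCTL and of 19.6 and 18.9 in shCM1. These were the dimmest signals of the 10 probes, above the highest negative control spot of each array, which lay between 4.21 and 6.52. On the log2 scale Mag was at -5.36 and -5.52 in shCTL and at -4.93 and -5.30 in shCM1, and both shCM1 arrays were the higher ones. The difference was 0.43 within slide 1, 0.22 within slide 2 and 0.33 in the fit (SE 0.32 without the block). The limma adjusted p with the block was 0.508, and the 95% interval from -0.25 to 0.91 spanned a wide range. The value was 0.077 with quantile normalization, 0.079 with cyclic loess, 0.076 in the authors' value table and 0.091 with normexp, and 0.14 to 0.51 with 1 array left out.

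Cnp, the cyclic nucleotide phosphodiesterase of myelin, was at -1.37 and -0.84 in shCTL and at -1.37 and -0.70 in shCM1. The pair of slide 1 was level, and the pair of slide 2 was higher in both groups. The difference was -0.00 within slide 1, 0.14 within slide 2 and 0.07 in the fit (SE 0.31 without the block). With the block, the limma adjusted p was 0.762 and the 95% interval ran from -0.17 to 0.31.

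**Figure D2:**
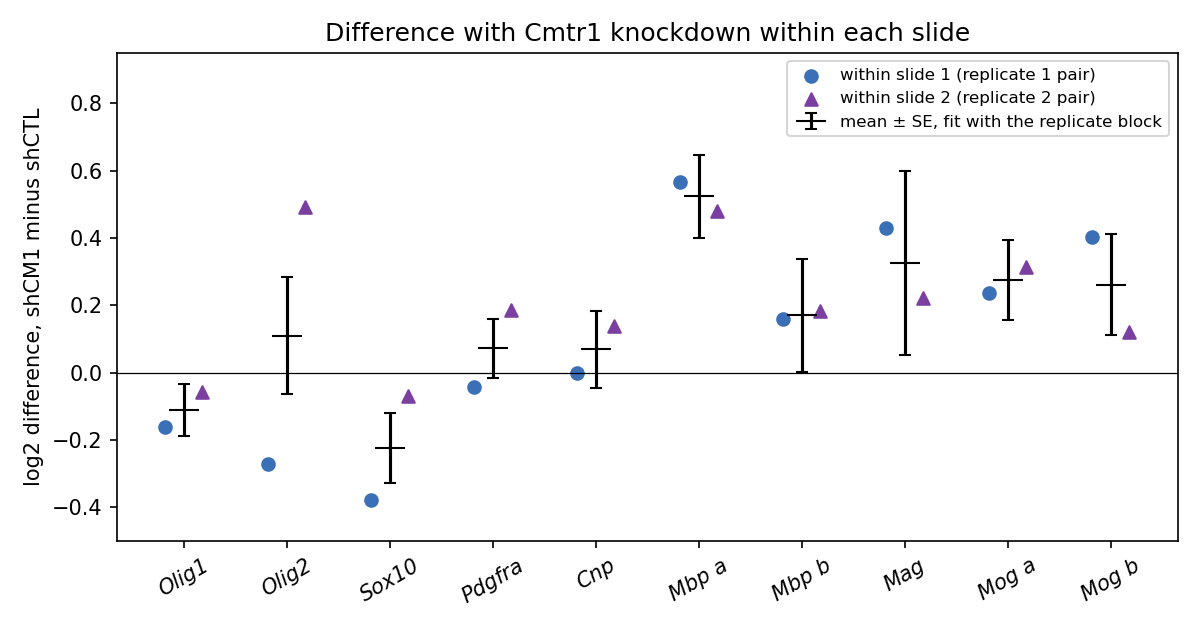
Difference between shCM1 and shCTL in log2 units within slide 1 (circles) and within slide 2 (triangles) for each probe, with the mean and standard error of the fit with the replicate block (bars, n = 2 pairs). The 5 probes of Mbp, Mag and Mog lie above 0 in both slides, from 0.12 to 0.57, while Olig2, Pdgfra and Cnp have opposite signs in the slides.

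Counted over the 10 probes, 5 had both shCM1 arrays above both shCTL arrays, those of Mbp, Mag and Mog, and 1, that of Olig1, had both below. Among all probes tested, these shares were 21.8% and 10%. The same 5 probes were higher within both slides, beside 44.2% of all probes, and Olig1 and Sox10 were lower within both, beside 22.6%. With the block, 3 of the 10 probes, those of Mbp a, Mog a and Sox10, had an unadjusted p under 0.05, beside 22.5% of all probes. The 5 probes stand for 3 genes, and probes of 1 gene read RNA of the same gene, so they are not 5 independent measurements. The Mbp probes are annotated to different transcripts of that gene. The median difference of the 10 probes was 0.14, that of the 5 probes was 0.28, and that of all probes was 0.08. These differences depended on the scaling: the median of the 5 probes was 0.11 with quantile normalization, 0.12 with cyclic loess, 0.11 in the authors' value table and 0.16 with normexp, where the median of all probes was 0.0066, 0.0072, 0.0066 and 0.06. Of the 5 probes, 4 stayed above 0 with loess and 5 under each of the other scalings. In RNA from whole cultures, fewer cells of a type and less RNA per cell cannot be told apart in any of these values.

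Some of the lineage and myelin genes also differed in level between the slides. In the fit with the block, 3 of the 10 probes had a higher level on slide 2 than on slide 1, those of Sox10, Pdgfra and Cnp, and 0 had a lower one. Among all probes, 11792 (32.1%) passed this test, 15.6% higher and 16.5% lower, with a median of -0.02. Both arrays of slide 2 lay above both of slide 1 for 4 of the 10 probes, with Olig2 as the other one (by under 0.1), beside 26.9% of all probes, and below them for 0 of 10, beside 29.9%. The split was 3996 higher and 10645 lower with normexp and 8452 higher and 3196 lower in the authors' value table, where the median of all probes was -0.12 and 0.11. Experiment, slide and scan cannot be told apart in this comparison.

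Sox10 was higher on slide 2 by 1.60 in shCTL and by 1.91 in shCM1, and by 1.75 in the fit (SE 0.11, limma adjusted p 1.69e-08), which is 3.37-fold. A difference of at least this size in this direction was found for 230 of all probes tested (0.627%). It lay between 1.72 and 1.91 under the scalings tried.

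Pdgfra was higher on slide 2 by 0.53 in shCTL and by 0.76 in shCM1, and by 0.65 in the fit (SE 0.09, limma adjusted p 5.69e-05), which 9.02% of all probes reached. Cnp was higher by 0.53 in shCTL and 0.67 in shCM1, and by 0.60 in the fit (SE 0.11, limma adjusted p 9.68e-04), which 10.1% of all probes reached. Without the intensity trend, an alternative added after the data were seen, Sox10 passed at a limma adjusted p of 0.0300, and Cnp at 0.0559 and Pdgfra at 0.0556 did not pass.

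Olig2 did not pass, as its slide difference of 0.38 (limma adjusted p 0.105) was 0.00 in shCTL and 0.77 in shCM1. Olig1 differed by 0.10 (limma adjusted p 0.351) and passed under quantile normalization (0.24, limma adjusted p 0.0244), cyclic loess (0.25, 0.0309) and in the authors' value table (0.21, 0.0428). The Mbp and Mog probes differed between the slides by -0.26 to 0.08, and none of the 4 passed. Mag was lower on slide 2 by 0.27 (limma adjusted p 0.487) and passed as lower with normexp (-0.34, limma adjusted p 0.00789). In the fit with the 75th percentile, a slide difference thus passed for Sox10, Pdgfra and Cnp, and for no probe of the other members. This is 30% of the 10 probes, beside 32.1% of all probes in either direction and 15.6% higher.

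**Figure D3:**
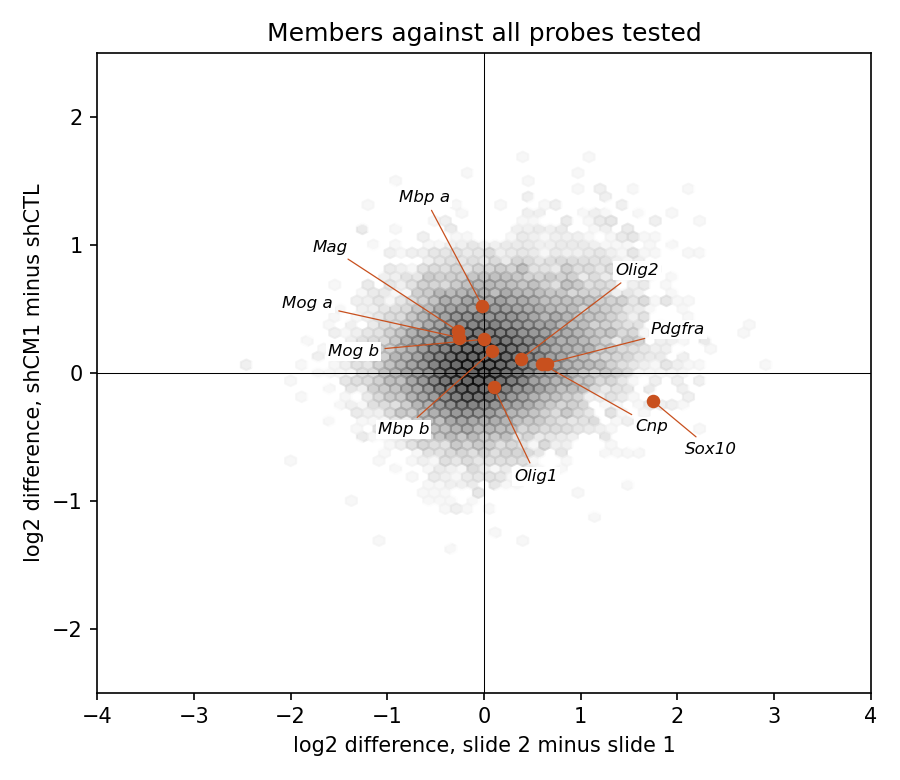
Difference between slide 2 and slide 1 (horizontal) against the difference between shCM1 and shCTL (vertical), both in log2 units, for the 10 probes (orange) over all 36700 probes tested (grey, darker where more probes lie, log colour scale). Sox10 stands at 1.75 on the horizontal axis, outside most probes, and Mbp a at 0.52 on the vertical axis.

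The windows of 250 bases before the transcription start of Cnp and Pdgfra, which both rose on slide 2, are shown with matches to CANNTG (the E-box letters that basic helix-loop-helix factors such as Olig1 and Olig2 can bind) and to ACAAAG or ACAATG (letters of the SOX site) in capitals, searched on both strands. They come from the RefSeq promoter table of build GRCr8, which matched 5 of the 8 members, so their coordinates are not on the build of the probes.

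Cnp, GRCr8 chr10:86011254-86011503, plus strand: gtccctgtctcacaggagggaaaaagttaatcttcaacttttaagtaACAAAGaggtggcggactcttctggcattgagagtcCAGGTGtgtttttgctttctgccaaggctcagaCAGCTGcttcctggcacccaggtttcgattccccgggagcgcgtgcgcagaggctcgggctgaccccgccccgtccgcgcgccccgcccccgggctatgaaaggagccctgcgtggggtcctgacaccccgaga

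Pdgfra, GRCr8 chr14:33408517-33408766, minus strand: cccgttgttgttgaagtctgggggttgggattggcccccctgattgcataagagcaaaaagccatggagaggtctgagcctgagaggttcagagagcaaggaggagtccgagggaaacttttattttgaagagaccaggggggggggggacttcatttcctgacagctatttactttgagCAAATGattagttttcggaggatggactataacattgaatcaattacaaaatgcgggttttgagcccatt

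The Cnp window held 2 matches to CANNTG and 1 to ACAAAG, and the Pdgfra window held 1 match to CANNTG. The Mag window held 1 match to CANNTG and 1 to ACAAAG, and the Olig2 window held none of the 3 motifs. Mbp had 2 windows, of which the first held none and the other held 3 matches to CANNTG, 1 to ACAAAG and 2 to ACAATG. Of 33469 promoter windows of the same length, 65.5% held CANNTG, 16.3% held ACAAAG and 11.1% held ACAATG. A match describes letters in this window and does not show binding.

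Related genes of the lineage are given by lists, each gene by its brightest probe, with counts from the limma fit with the block; without the block no gene of any list passed, and with the block but without the intensity trend none passed either. With the block, 3.2% of all probes tested were higher and 2.69% lower in shCM1. These shares count every probe, not the brightest of each gene. Of 12 precursor genes measured, 2 rose and 1 fell in shCM1, with a median difference of 0.07. Vcan, a proteoglycan of the extracellular matrix, rose by 0.55 (within slides 0.45 and 0.64, limma adjusted p 0.00212). Cspg4, the NG2 proteoglycan of precursor cells, fell by 0.35 (limma adjusted p 0.0262), passed in 3 of 9 fits with the block, and ranged from -0.50 to -0.20 with 1 array left out.

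Of 11 genes of committed and newly formed oligodendrocytes, 1 rose and none fell. This was Enpp2, the secreted enzyme autotaxin, at 0.69 (limma adjusted p 0.00703), with 0.32 within slide 1 and 1.05 within slide 2, and 0.13 to 1.25 with 1 array left out. Of 27 further myelin and mature oligodendrocyte genes, 1 rose and 3 fell, around a median of 0.02. Pllp, or plasmolipin, fell by 0.85 (limma adjusted p 0.00266), Plekhb1 by 0.65 (limma adjusted p 0.00222) and the receptor Gpr37 by 0.47 (limma adjusted p 0.0168). With 1 array left out, Plekhb1 ranged from -0.99 to -0.30. The list thus held genes that moved in both directions, and its median lay near the 0.08 of all probes.

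For the partners of Pdgfra, 1 of 4 measured genes rose and 1 fell. Pdgfa, the ligand that precursor cells depend on, was at 2.85 and 2.85 in shCTL and at 2.34 and 2.23 in shCM1. Both shCM1 arrays were below both controls, and the difference was -0.51 within slide 1 and -0.62 within slide 2, with -0.57 in the fit (SE with the block 0.09, limma adjusted p 0.00119). It passed in 8 of 9 fits with the block, the exception being the fit without the intensity trend. Pdgfrb, the receptor beta of mural cells, rose by 0.62 (limma adjusted p 0.0252), passed in 4 of 9 fits and ran from -0.10 to 1.34 with 1 array left out.

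Of 12 receptors and partners of Mag, 1 rose and 2 fell, with a median of -0.20. B4galnt1, which makes the gangliosides that Mag binds, fell by 0.60 (limma adjusted p 7.20e-04), with -0.92 to -0.28 when 1 array was left out. St3gal1, a sialyltransferase, fell by 0.30 (limma adjusted p 0.036), passed in 4 of 9 fits with the block and ran from -0.56 to -0.05 with 1 array left out. Omg, a myelin glycoprotein that also binds the Nogo receptor, rose by 0.37 (limma adjusted p 0.0482), passed in 3 of 9 fits and ran from -0.070 to 0.82. Of 12 regulators of the lineage helix-loop-helix factors, 2 rose and none fell: the Notch target Hes5 by 0.85 (limma adjusted p 0.0189, within slides 0.22 and 1.48, and -0.27 to 1.97 with 1 array left out) and the inhibitor Id4 by 0.42 (limma adjusted p 0.0248, and 0.23 to 0.60). Hes5 passed in 3 of 9 fits with the block and Id4 in 5 of 9, and the list had 0 genes that passed with cyclic loess, with normexp or without the filter on dim probes.

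On slide 2, 6 of the 12 precursor genes were higher and 1 was lower, with a median of 0.33, and 6 of the 11 committed genes were higher and none lower, with a median of 0.75. Of the 27 further myelin genes, 8 were higher and 4 lower. The shares over all probes were 15.6% higher and 16.5% lower. Under normexp the committed genes were 3 higher with a median of 0.08, and the myelin genes 5 higher and 7 lower. The following genes were chosen after their values were seen. Bcas1, a marker of newly formed oligodendrocytes, was at 1.14 and 2.83 in shCTL and at 0.66 and 2.80 in shCM1, a slide difference of 1.92 (limma adjusted p 8.83e-09), and of 2.13 at its other probe. The SOX factor Sox6 differed by 1.15 (limma adjusted p 4.49e-07, and 0.38 to 1.15 over its 3 probes), and Myrf, the factor that turns on myelin genes, by 0.88 (limma adjusted p 0.0114). Nkx2-2, a factor of the lineage, differed by -0.49 (limma adjusted p 0.00559), so the precursor genes did not all go one way.

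In the fit with the block, some markers of other cell types differed between the slides or with the knockdown. Their part in the member results was not tested. Among all probes, 3.2% were higher and 2.69% lower in shCM1, and 15.6% were higher and 16.5% lower on slide 2. The astrocyte list had 0 of 11 genes changed in shCM1 (median -0.04), and 8 higher and 1 lower on slide 2 (median 0.41). The progenitor list had 3 of 9 higher in shCM1 (median 0.32), and 5 higher and 0 lower on slide 2 (median 0.54). The dividing cell list had 3 of 7 lower in shCM1 (median -0.39), and 5 higher on slide 2 (median 0.46). The microglia list had 5 of 13 higher in shCM1 (median 0.67), and 3 higher and 5 lower on slide 2 (median -0.33). The fibroblast and mural list, which bears on Pdgfra, had 3 of 10 higher in shCM1 (median 0.44), and 4 higher and 2 lower on slide 2. The neuron list had 1 of 11 lower in shCM1 (median -0.07), and 5 lower on slide 2 (median -0.20). The Schwann cell list, whose cells share myelin genes with oligodendrocytes, had 0 of 5 changed in shCM1, with 2 higher and 1 lower on slide 2. These values moved with the scaling and the filter. The microglia median in shCM1 was 0.41 with quantile normalization and 0.28 with normexp, and 1 of its genes passed without the filter on dim probes. The fibroblast and mural median was 0.20 with quantile normalization and 0.18 with normexp, with 1 gene that passed with cyclic loess, in the authors' value table or without the filter. Without the filter 0 progenitor, 0 dividing cell and 0 neuron genes passed in shCM1. With cyclic loess 1 dividing cell gene passed, and with normexp 1 progenitor gene.

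The examples below were named by the smallest p in their lists, so they do not show the usual shift of a list. Tyrobp, a microglial adaptor, rose by 0.97 (limma adjusted p 1.18e-04), Fcer1g by 1.01 (limma adjusted p 0.00225), Aif1 by 1.30 (limma adjusted p 0.00236, and 0.42 at the lowest of the scalings and 0.81 without shCM1 replicate 1) and Cd68 by 0.67 (limma adjusted p 0.00651, and 0.36 without shCTL replicate 1). Dcn, a fibroblast proteoglycan, rose by 0.86 (limma adjusted p 4.43e-04, and 0.31 to 1.41 with 1 array left out), and Col1a2 rose by 0.54 (limma adjusted p 0.0141). Sox2 rose by 0.44 (limma adjusted p 0.00824, and 0.05 to 0.84). The cell cycle genes Cdk1, Birc5 and Ccnb1 fell by 0.51, 0.44 and 0.45 (limma adjusted p 0.00713, 0.0148 and 0.0339), with -0.83 to -0.19 for Cdk1 and -0.71 to -0.17 for Birc5 with 1 array left out. Tubb3, the neuronal tubulin, fell by 0.37 (limma adjusted p 0.0114, and -0.62 to -0.11), where the median of the neuron list was -0.07. Col1a2 and Tubb3 passed in 5 of 9 fits with the block, Ccnb1 in 4, and the others above in 6 to 8. Among astrocyte genes, Aldh1l1 had -0.28 (limma adjusted p 0.10) and Slc1a3 0.13 (limma adjusted p 0.316), and neither passed. Among Schwann cell genes, Prx had -1.08 (limma adjusted p 0.156, and -1.42 to -0.047 over the scalings) and did not pass either. Prx was well above background on 3 of 4 arrays, and its difference was -2.13 within slide 1 and -0.03 within slide 2. Other probes of a named gene gave smaller differences for Tyrobp (0.41), Vcan (0.36), Id4 (0.18), Ccnb1 (-0.19) and St3gal1 (-0.11).

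The summed linear signal of each list, relative to the 75th percentile, was 428 and 345 for neuron genes in shCTL and 415 and 328 in shCM1. For astrocyte genes it was 130 and 146 in shCTL and 140 and 146 in shCM1, and for microglia genes 2.27 and 1.98 against 3.57 and 2.61. Cultures labelled as neurons thus also held signal of glial markers. Such a sum rests most on its brightest probes, and levels of different probes are not comparable. Among the astrocyte genes, Slc1a3 was at 6.40 and 6.23 in shCTL on the log2 scale. Its slide difference was -0.20, where the median of its list was 0.41. Progenitor genes summed to 118 and 175 in shCTL and to 130 and 211 in shCM1, and fibroblast and mural genes to 5.14 and 5.26, and 5.06 and 5.46. Dividing cell genes summed to 14.1 and 16.9, and 9.32 and 14.1, and Schwann cell genes to 11.8 and 8.11, and 12.9 and 8.64. These sums took only genes past the filter, so no list could be at 0. The genes on the array that were not past it were Itgam (microglia) and Cdh19 (Schwann cell), and, among the partners of Pdgfra, Pdgfb.

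**Figure D4:**
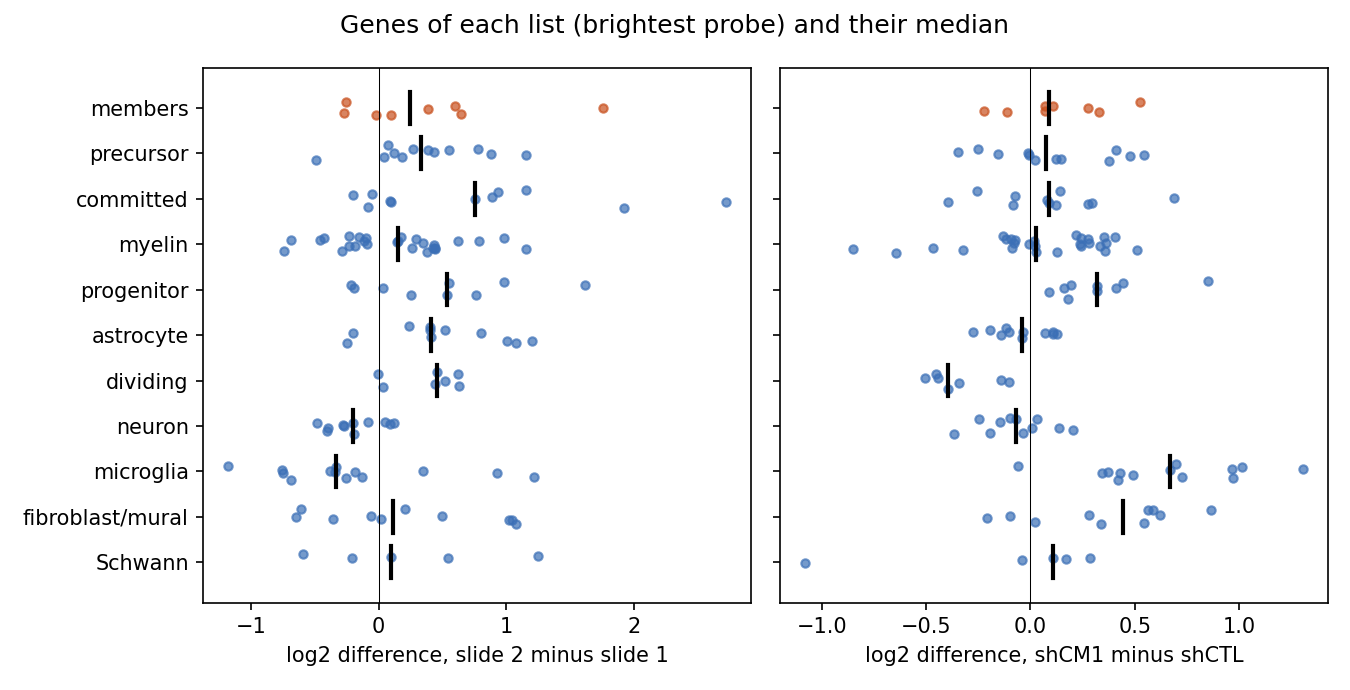
Difference of each list gene at its brightest probe, in log2 units, between slide 2 and slide 1 (left) and between shCM1 and shCTL (right), with the list median as a black bar and the 8 members in orange. On slide 2 the committed genes have a median of 0.75 and the microglia genes one of -0.33, and in shCM1 the microglia genes have a median of 0.67 and the dividing cell genes one of -0.39.

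The gene with the profile most like each member over the 4 arrays was found by the root mean square distance between centred log2 levels, for members that spanned over 0.5 and against 19616 or 19617 probes with a gene symbol. Sox10 had the fewest near neighbours of these members, with 3 probes within a distance of 0.1. For Olig2 the nearest was Dgkq at 0.0244, with 99 probes within 0.1. The other members had many near neighbours: Pdgfra was nearest to Myo9b at 0.0090 (376 within 0.1), Cnp to Myo19 at 0.0117 (548), Mbp to Impa2 at 0.0165 (383), Mag to Arhgap8 at 0.00549 (778) and Mog to Arhgap1 at 0.00534 (1372). With 4 arrays, such likeness is only a description of them.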

How the data were processed

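Per the file headers, the authors scanned 1-colour Cy3 arrays and extracted them with Agilent Feature Extraction 10.7.3.1. The deposited values are spot intensity on a linear scale; the processed signal, already background-corrected by that software, was used. The authors' value table of the series, deposited as intensity too, served as an alternative, and how it was made was not stated in the sources used. Outlier spots (86 to 98 per array) were left out, repeat spots were averaged, and the 75th percentile of the gene probes (596.3 to 754.5 per array) was subtracted from the signal on the log2 scale. A probe was kept if at least 2 of 4 arrays had it well above background (36700 probes).

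Differences were fitted by limma 3.58.1 under R 4.3.3 (intensity trend, two-sided, Benjamini-Hochberg over all probes, threshold 0.05), without a block, and again with the slide as a replicate block. An exact permutation test of 2 arrays against 2 cannot go below 0.33. After removal of group means, arrays with the same number correlated at 0.713, and the first principal component, with 65.1% of the variance, separated the slides. The pairing was read from the headers; no label says that a slide is an experiment. The labels give 2 independent experiments but not separate litters, so the p-values say nothing beyond these samples. With the block, the error behind them comes largely from other probes of similar brightness. The number of arrays limits the precision.

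Members, gene lists and named genes were chosen with earlier results of these data known. All members are named at every probe. From each list, up to 4 genes that passed with the block are named by smallest p, or otherwise the 2 with the smallest p; some genes that this rule or the likeness measure names are not reported here. List genes were matched through RefSeq GRCr8 names (18971 probes matched on accession, 2995 on symbol, 203 on a former symbol; 18843 stayed unnamed). The fit was also run on simulated data with independent normal errors and the slide and group terms that the block fit assumes. That run does not show how the fit behaves on real arrays. Alternatives were quantile and cyclic loess normalization, a percentile over probes detected on all arrays, normexp with an offset of 50, the authors' table, other filters, no intensity trend, leaving out each array, and gene means over probes. The sample titles begin with si where the shRNA label has sh, and groups follow the label.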

Additional observations from a re-analysis of the deposited data

How the results depend on the processing

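With the replicate block, 1176 probes were higher and 988 lower in shCM1, against 0 and 0 without it, and 1 member probe (Mbp a) was higher, against 0. The block with another choice gave, as higher and lower, 545 and 808 with quantile normalization, 369 and 603 with cyclic loess, 1279 and 926 with the percentile over probes detected on all arrays, 635 and 787 with normexp, 429 and 679 in the authors' value table, 107 and 248 without the filter, and 1137 and 998 with detection on all 4 arrays. It gave 0 and 0 without the intensity trend. Mbp a was the 1 member that passed with the detected percentile and with detection on all 4 arrays, and in the other block fits no member passed. The Cmtr1 difference of -1.85 passed with the block, and with the block it was -1.97 with quantile or loess normalization, -1.84 with the detected percentile, -1.22 with normexp and -1.98 in the authors' table. The pairing changed no other member call.

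On the slide comparison, normexp gave 10645 lower probes and 1 lower member (Mag), and the authors' deposited values gave 3196 lower probes. The fit without the intensity trend, chosen after seeing the data, gave 2209 higher and 1331 lower probes and 1 higher member (Sox10).

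The signs of small differences turned. Olig2 was -0.047 with quantile normalization, -0.037 with loess and -0.040 in the authors' table, with or without the block, and Mbp b was -0.013 with loess. Between slides, Mog b was -0.042 with quantile normalization, -0.058 with normexp and -0.021 with loess (added after seeing the data), Mbp b was -0.11 with normexp, and Mbp a was 0.12 in the authors' table. The cause of these changes was not tested.

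Leaving out 1 array, without the block, leaves the slides unbalanced. Sox10 then ranged from -1.18 to 0.73, Cnp from -0.27 to 0.40, Pdgfra from -0.31 to 0.45, Olig2 from -0.27 to 0.49, Pdgfrb from -0.10 to 1.34, Omg from -0.070 to 0.82, Hes5 from -0.27 to 1.97, Aldh1l1 from -0.68 to 0.13 and Prx from -2.23 to 0.071. No member probe passed in these fits. Mag, the dimmest probe, had the widest interval among the members.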
